A study of Mus musculus with 61 samples.

Results

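The collagen genes were taken as every row of the deposited count table whose symbol has the form Col, a type number, a and a chain number. That gave 42 of 23927 gene rows, sorted by collagen type into 8 basement membrane chains (types IV, XV and XVIII), 11 fibrillar chains, 10 chains of beaded filaments and networks, 9 fibril-associated chains and 4 transmembrane chains. The table holds 61 single-cell libraries from ovaries of wild-type CD-1 mice at postnatal day 5, collected 6 h after an intraperitoneal injection. The injection was solvent for 16 control oocytes and 16 control granulosa libraries, and doxorubicin, a DNA-damaging anti-cancer drug, for 16 doxorubicin oocytes and 13 doxorubicin granulosa libraries. The unit of the dose is written in the labels in a form that cannot be read as a dose, so no dose is given. No animal, litter or culture is named for any cell, so each group counts as 1 sample. No test between groups was possible and none is given.

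Collagens are secreted as trimers of chains, and the chain genes switched on together decide which trimer a cell can build. Type IV collagen forms the sheet of the basement membrane that surrounds each ovarian follicle on the outer side of its granulosa cells, with type XVIII attached to it. Types I, III and V form the fibrils of the connective tissue between follicles, and type VI forms beaded filaments near cell surfaces.

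The shared start of the chain genes Col4a1 and Col4a2 is shown because those chains build the main type IV trimer and are read in opposite directions from the same stretch of chromosome 8. In GENCODE M21, on build GRCm38 (the assembly also called mm10), their gene records overlap by 22 bases at chr8:11312805-11312826. The bases, taken from a RefSeq promoter entry on GRCm38.p6, are given on the plus strand, with a GC box (GGGCGG) in capitals.
Col4a1 and Col4a2, overlap: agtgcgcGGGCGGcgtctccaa
Col4a4 and Col4a3 are also arranged head to head, 71 bases apart on chromosome 1, and Col4a6 and Col4a5 start 1308 bases apart on the X chromosome. The 250 bases before the start of Col6a5 (chr9:105960644-105960893, minus strand) and of Col3a1 (chr1:45311288-45311537, plus strand) are shown because Col6a5 had the highest length-scaled level of the collagens in control oocytes, while Col3a1 was found in the largest number of granulosa libraries among the fibrillar chains (25 with at least 5 reads). Capitals mark the GC box in Col6a5 and a TATA box (TATAAA) in Col3a1.
Col6a5: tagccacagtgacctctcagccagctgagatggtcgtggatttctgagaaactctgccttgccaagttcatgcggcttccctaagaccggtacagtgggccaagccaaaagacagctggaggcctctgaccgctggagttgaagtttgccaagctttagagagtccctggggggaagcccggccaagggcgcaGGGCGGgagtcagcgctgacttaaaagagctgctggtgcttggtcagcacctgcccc
Col3a1: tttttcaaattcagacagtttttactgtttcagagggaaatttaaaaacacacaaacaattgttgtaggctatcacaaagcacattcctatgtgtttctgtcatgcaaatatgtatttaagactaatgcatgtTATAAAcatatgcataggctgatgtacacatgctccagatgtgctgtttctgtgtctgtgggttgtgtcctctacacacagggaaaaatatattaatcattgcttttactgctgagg
The marked motifs begin 57 bases before the start in Col6a5 and 117 bases before it in Col3a1. RefSeq promoter entries were found for 33 of the 42 members, in 36 windows of 250 bases. On either strand, GGGCGG was present in 22 of those windows against 32.7% of all 32851 windows. CCAAT was present in 13 of them against 33.8%, and TATAAA in 4 against 12.4%. The element TAATTG, bound by the oocyte factor Nobox, was in 2 of the 36 against 7.17%, and neither was in Col6a5 or Col3a1.

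Totals were between 6834594 and 31262609 estimated counts per library. Levels are given as counts per 1000000 counts (CPM), summed over the cells of a group, and intervals are exact 95% Poisson or binomial intervals that cover counting error only. Amplified reads carry no molecular identifiers here, and the spread between cells is far wider than these intervals. The cause of that spread was not tested. The oocyte labels held: in 32 of 32 oocyte libraries the summed oocyte markers were above the granulosa markers. Granulosa markers such as Foxl2 (54.3 CPM in control, 64.7 CPM in doxorubicin libraries) were present in both groups labelled granulosa, but not in every library. Foxl2 had medians of 14.4 and 19.7 CPM and was at 0 in libraries such as control granulosa 8 and doxorubicin granulosa 4. However, 12 stroma markers without any collagen summed to more than the granulosa markers in 6 of 16 control granulosa libraries and in 1 of 13 doxorubicin ones. Oocyte markers exceeded granulosa markers in 4 of 16 control and 8 of 13 doxorubicin granulosa libraries. Results are therefore written for granulosa libraries, not for granulosa cells. In such libraries, fewer cells of a type and less RNA per cell cannot be told apart.

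Collagens made up a far larger share of the counts in control granulosa libraries than in control oocytes, and the leading chains differed. CPM is a share of counts, so transcripts per cell were not measured in any comparison of the cell types here. All collagens together reached 3068 CPM (95% interval 3059 to 3076) in control granulosa libraries and 399 CPM (397 to 402) in control oocytes. Of the 42 members, 26 reached 5 CPM in either group, and 20 of these were at least 2-fold higher in granulosa libraries while 5 were at least 2-fold lower. Over all 12373 genes so filtered, 31.3% were at least 2-fold higher and 29% at least 2-fold lower, 60.3% together. A gene under 5 CPM in 1 group passes only through the other, and can only come out higher there. This held for all 5 lower members. Among the higher ones it held for Col4a4, Col4a5, Col4a6, Col5a1, Col5a2, Col8a1, Col9a2, Col11a1, Col12a1, Col26a1 and Col27a1. The members' median log2 ratio of granulosa over oocyte was 3.97, against 0.03 for all genes. Without any 1 cell, 24 of these 25 members stayed past 2-fold. Beaded filament Col6a3 was the exception, at 1.34 with all cells and -0.08 without control granulosa 13.

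**Figure D1:**
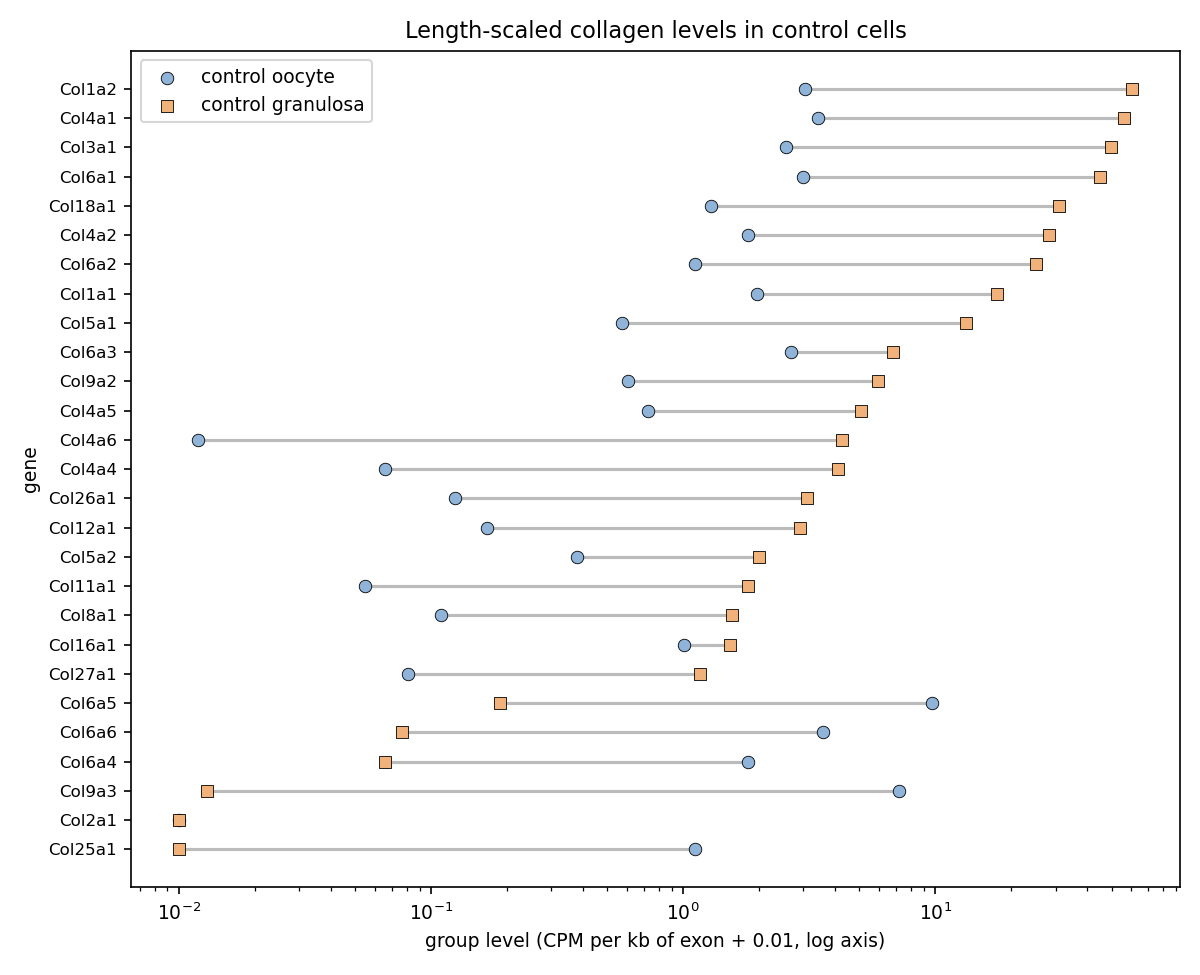
Group level of each of the 27 collagen genes that reached 5 CPM in at least 1 of the 4 groups, in CPM per kb of exon plus 0.01 on a log axis, for control oocytes (circles) and control granulosa libraries (squares). Col1a2 (60.3 CPM per kb) and Col4a1 (55.9) lead in granulosa libraries, whereas Col6a5 (9.66) and Col9a3 (7.20) lead in oocytes.

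Per kb of exon, the leading chains of control granulosa libraries were Col1a2 at 60.3 CPM per kb, Col4a1 at 55.9, Col3a1 at 49.7, Col6a1 at 45.2 and Col18a1 at 31.1. In control oocytes the order differed, with Col6a5 at 9.66 CPM per kb, Col9a3 at 7.20, Col6a6 at 3.59, Col4a1 at 3.43 and Col1a2 at 3.04. The neighbours Col6a6, Col4a1 and Col1a2 in that order have cell ranges that overlap widely. The plot of length-scaled levels shows the chains that lead in either cell type.

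All 6 basement membrane members that passed the filter were higher in control granulosa libraries, with a median log2 ratio of 4.31. Their class sum was 938 CPM (934 to 943) in control granulosa libraries and 52.1 CPM (51.1 to 53.1) in control oocytes, a log2 ratio of 4.17. Col4a1, the more frequent chain of the main type IV trimer, ranged from 1.14 through a median of 226 to 1834 CPM over the 16 control granulosa libraries. Its range in control oocytes was 2.15 through 20.3 to 79.7 CPM. All 16 control oocytes had at least 5 reads of Col4a1, and 10 of 16 granulosa libraries lay above the highest oocyte while 2 lay below the lowest. The group levels of Col4a1 were 417 and 25.6 CPM, a log2 ratio of 4.03 (3.99 to 4.07). Col4a2, its partner chain, had 188 CPM in control granulosa libraries and 11.9 CPM in control oocytes. Col18a1, whose tail is the source of endostatin, had 218 and 9.01 CPM. In control granulosa libraries Col18a1 ranged from 0 through 174 to 915 CPM, and in control oocytes from 0 through 0.08 to 85.9 CPM, so the groups overlapped at the low end.

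The chains of the other type IV trimers were sparse. Col4a4 had 43.4 CPM in control granulosa libraries, where its range was 0 through 0.21 to 257 CPM, and 0.59 CPM in control oocytes. Col4a5 had 34.2 CPM there, ranging from 0 through 0.09 to 162 CPM, and 4.79 CPM in control oocytes. Col4a6 had 33.9 CPM, and 96.5% of its counts came from control granulosa 3 alone, and 3 counts in all control oocytes. Control granulosa 3 was also the highest library for Col4a1 (1834 CPM) and Col4a2 (1178 CPM). It held 3369 CPM of 8 mural and smooth muscle markers, with Rgs5 at 1260 CPM, and 368 CPM of endothelium markers. By contrast control granulosa 10, the next highest for the class at 2664 CPM, held 0.08 CPM of mural markers and 0 of endothelium markers.

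Fibrillar chains were also higher in control granulosa libraries for all 7 members that passed the filter. Their sum was 1525 CPM (1520 to 1531) against 89.2 CPM (87.9 to 90.6) in control oocytes, a log2 ratio of 4.10. It was 2.82 in the libraries whose granulosa markers exceeded their oocyte markers. Col1a2, a chain of type I collagen, ranged from 0 through 446 to 3272 CPM over control granulosa libraries and from 0 through 9.85 to 282 CPM over control oocytes. Its group levels were 750 and 37.8 CPM, a log2 ratio of 4.31 (4.28 to 4.34), and 9 of 16 granulosa libraries lay above the highest oocyte. Col3a1, which forms type III collagen on its own, ranged from 0.09 through 214 to 1883 CPM in control granulosa libraries. In control oocytes Col3a1 ranged from 0 through 1.17 to 132 CPM, and the log2 ratio was 4.29. Col1a1, the other type I chain, had 115 and 12.8 CPM, and Col5a1, a chain of the type V collagen that starts fibrils, had 112 and 4.75 CPM. The minor fibrillar chains Col11a1 (22.8 CPM), Col5a2 (19.0 CPM) and Col27a1 (15.02 CPM) were below 4 CPM each in control oocytes.

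The fibrillar reads sat in few libraries. Control granulosa 2 (5643 CPM) and 13 (5309 CPM) together gave 50.8% of their group's fibrillar counts, and they held 5745 and 14989 CPM of stroma markers. Their granulosa markers were only 457 and 633 CPM. In the oocytes, control oocytes 4 (565 CPM), 5 (377 CPM) and 9 (308 CPM) stood above a median of 16.1 CPM. Those 3 oocytes also held the highest stroma markers of their group, at 733, 1124 and 888 CPM against a group median of 52.8 CPM. Whether stroma transcripts contributed to these values was not tested. In the 7 control oocytes with under 200 CPM of granulosa and stroma markers together, fibrillar chains came to 12.8 CPM and basement membrane chains to 31.1 CPM.

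A small set of collagens ran the other way and was higher in control oocytes. These were Col6a4, Col6a5 and Col6a6, the alternative type VI chains that can take the place of Col6a3 in the trimer, together with Col9a3, a chain of type IX collagen, and Col25a1, a transmembrane collagen best known from neurons. Col6a5 ranged from 7.45 through 92.0 to 253 CPM over the 16 control oocytes and from 0 through 0 to 18.4 CPM over control granulosa libraries. Every control oocyte had at least 5 reads of it, and 14 of 16 granulosa libraries lay below the lowest oocyte. The group levels of 90.9 and 1.67 CPM give a log2 ratio of granulosa over oocyte of -5.76 (-5.93 to -5.60).

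Col6a6 ranged from 4.52 through 19.3 to 124 CPM in control oocytes, with a group level of 32.9 CPM against 0.61 CPM in granulosa libraries. Col6a4 ranged from 0.08 through 17.9 to 53.1 CPM, with 15.3 CPM against 0.47 CPM. These 3 genes all lie on the minus strand of chromosome 9, between positions 105687809 and 106096783. Control oocyte 10 was the highest oocyte for each of them, and their sum in it was 430 CPM against a group median of 135 CPM. That oocyte had the lowest fibrillar sum of its group, 0.13 CPM. The usual partner chains were low beside them: Col6a1 had 13.0035 CPM with a median oocyte of 0.11 CPM, and Col6a2 had 9.23 CPM with a median oocyte of 0.14 CPM. Col6a3 was detected more evenly, from 0 through 17.4 to 137 CPM, with at least 5 reads in 15 of 16 control oocytes.

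Col25a1 was the only collagen whose 2 control groups did not overlap, where 3.7% of all genes tested showed no overlap. It ranged from 3.72 through 14.2 to 25.7 CPM over the 16 control oocytes and had 0 counts in all 16 control granulosa libraries, which allows at most 0.017 CPM, taken as 3 counts of the group's total. The log2 ratio of granulosa over oocyte was thus at most -9.74 with the empty group set to 3 counts. Col9a3 ranged from 0 through 17.5 to 65.5 CPM in control oocytes, with at least 5 reads in 15 of 16. Its 2 counts in control granulosa libraries gave a log2 ratio of -11.28 with a counting interval of -14.33 to -9.43. The other type IX chains did not accompany Col9a3 in oocytes: Col9a1 was at 0.0051 CPM, from 1 count, and Col9a2 at 1.83 CPM with a median oocyte of 0.

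**Figure D2:**
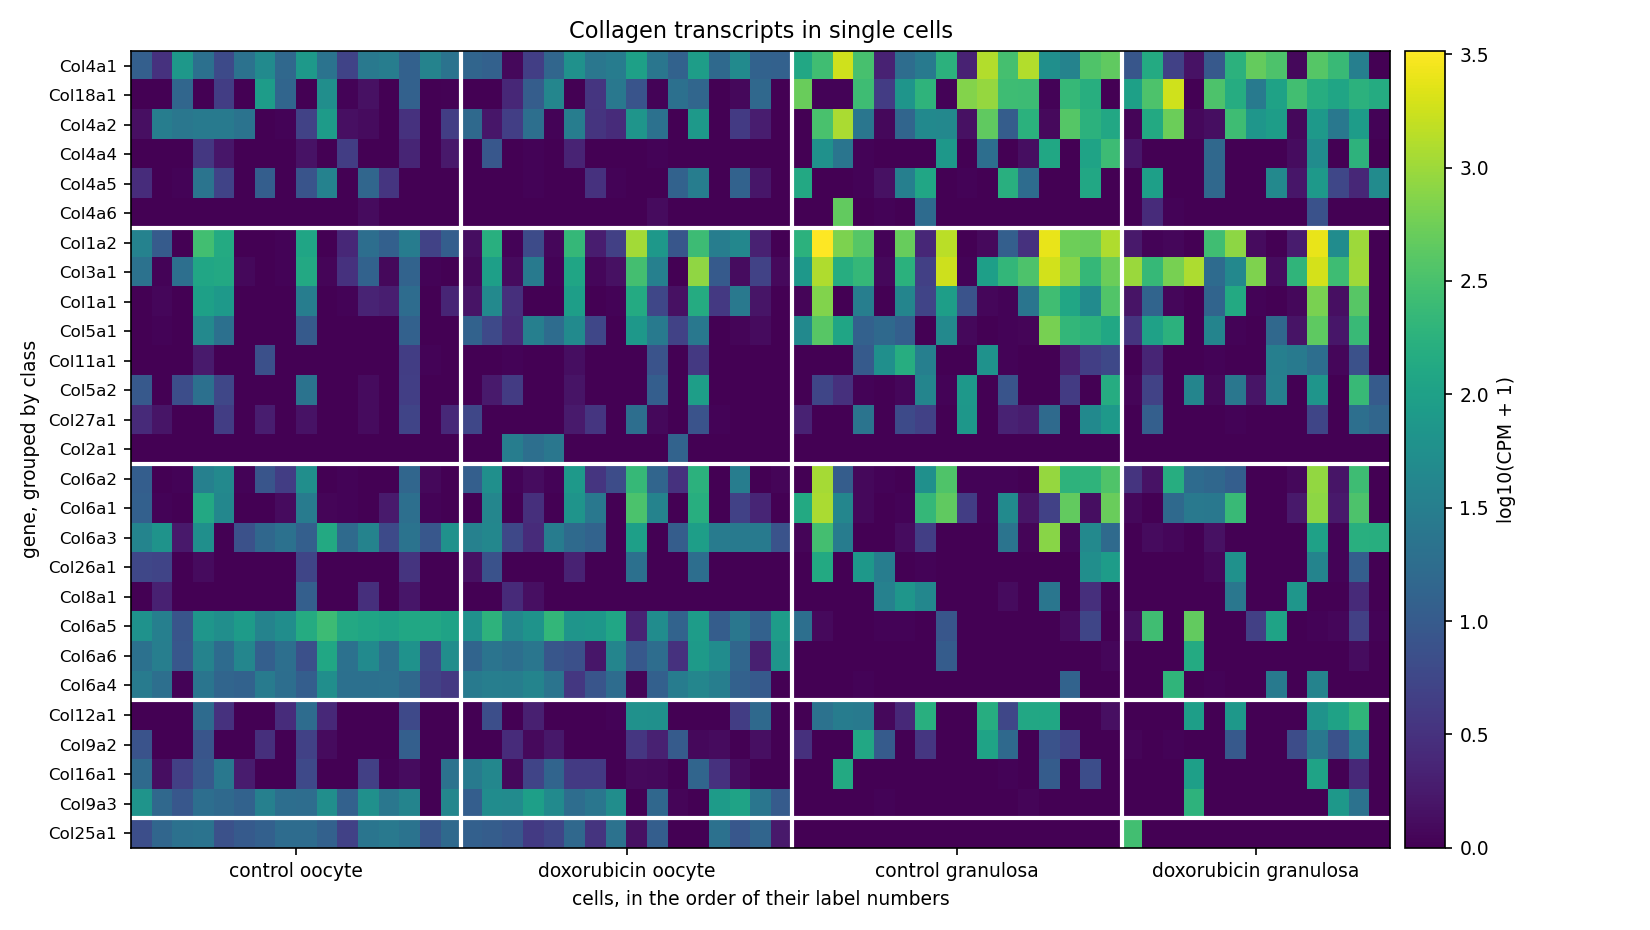
Level of the 27 collagen genes (rows, grouped by class from basement membrane at the top to transmembrane at the bottom) in the 61 libraries (columns, by group), as log10 of CPM plus 1. Fibrillar chains light up in a few libraries of each group, whereas Col6a4, Col6a5, Col6a6, Col9a3 and Col25a1 form a band across most oocytes. The band has gaps, such as Col9a3 and Col25a1 at 0 in doxorubicin oocyte 12.

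After doxorubicin, oocytes kept a similar level of basement membrane chains and had a higher sum of fibrillar chains, with much of the difference in 2 libraries. Of 19 members that reached 5 CPM in either oocyte group, 8 were at least 2-fold higher and 0 at least 2-fold lower. Among all 11119 genes so filtered, 6.3% were at least 2-fold higher and 2.45% at least 2-fold lower, 8.75% together. The 8 were Col1a1, Col1a2, Col2a1, Col3a1 and Col5a1 among the fibrillar chains, with Col6a1, Col6a2 and Col12a1. Of these, Col2a1, Col5a1 and Col12a1 had 0, 4.75 and 2.38 CPM in control oocytes. They passed the filter only through the doxorubicin group, so they could only come out higher. The members' median log2 ratio was 0.45, against 0.01 for all genes. Leaving out any 1 cell kept Col12a1, Col2a1, Col5a1 and Col6a2 past 2-fold but not the other 4, and without doxorubicin oocyte 9 only 5 members were past it.

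Fibrillar chains summed to 250 CPM (248 to 253) in doxorubicin oocytes, a log2 ratio of 1.49 (1.46 to 1.51) over control oocytes. Over the 16 doxorubicin oocytes the sum ranged from 0.21 through 42.9 to 1581 CPM, and over control oocytes from 0.13 through 16.1 to 565 CPM. The groups overlapped over almost their whole range, and only doxorubicin oocytes 9 (1581 CPM) and 12 (1376 CPM) exceeded the highest control oocyte. These held 65.6% of their group's fibrillar counts, and also 1021 and 773 CPM of stroma markers and 3227 and 2053 CPM of granulosa markers. The group medians of those markers were 59.9 and 99.2 CPM. Over all cells, granulosa markers came to 254 CPM in controls against 519 CPM after doxorubicin, and stroma markers at 194 and 221 CPM. Mural markers were at 32.8 and 82.6 CPM, endothelium markers at 8.71 and 32.4 CPM, and blood and immune markers at 3.14 and 17.3 CPM. Of the last, the haemoglobin gene Hba-a1 had 0.99 and 7.67 CPM. Ptprc and Csf1r were at 0 in control oocytes, and Cd52, Lyz2 and C1qa in doxorubicin oocytes. Without doxorubicin oocyte 12 the ratio was 0.98, and without control oocyte 4 it was 2.04. Under 200 CPM of stroma and granulosa markers together were held by 8 doxorubicin and 7 control oocytes. Their fibrillar sums were 31.8 and 12.8 CPM, a log2 ratio of 1.31. Doxorubicin oocytes 3, 4 and 5 among them had 29.8, 18.4 and 23.5 CPM of Col2a1, which had 0 counts in control oocytes. Col5a1 had 1 count in those control oocytes. In the same selection Col3a1 had a log2 ratio of 1.35, Col1a1 1.04 and Col1a2 -0.45. The part of the marker transcripts in the values over all cells was not tested.

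Col1a2 ranged from 0 through 6.58 to 1059 CPM in doxorubicin oocytes. Its median lay below that of control oocytes (9.85 CPM), although the group level was higher, 105 against 37.8 CPM. The log2 ratio of 1.47 was 0.54 without doxorubicin oocyte 9 and -0.45 among the oocytes with few stroma and granulosa transcripts. Col3a1 ranged from 0 through 2.18 to 849 CPM, and its log2 ratio of 1.80 was 0.55 without doxorubicin oocyte 12 but 1.35 among the oocytes with few stroma and granulosa transcripts. Col1a1 ranged from 0 through 1.28 to 144 CPM, with a group level of 27.2 CPM. Its log2 ratio of 1.09 was 0.60 without doxorubicin oocyte 12, and 1.04 among those oocytes.

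Col5a1 was spread over more cells. It ranged from 0 through 4.83 to 74.7 CPM in doxorubicin oocytes and from 0 through 0 to 44.4 CPM in control oocytes, with at least 5 reads in 11 of 16 against 4 of 16. The group levels were 15.2 and 4.75 CPM, and the log2 ratio of 1.68 (1.57 to 1.79) lay between 1.35 and 2.67 without any 1 cell. In the oocytes with few stroma and granulosa transcripts Col5a1 was at 9.18 CPM in doxorubicin and 1 count in control cells. Col5a2, its partner chain, had 6.64 and 3.56 CPM. Its log2 ratio of 0.90 became -1.87 without doxorubicin oocyte 12, which held 86.3% of its counts. In the oocytes with few such transcripts the Col5a2 ratio was 3.33. There it was read in doxorubicin oocyte 3 alone (3.14 CPM) and in control oocyte 12 alone (0.27 CPM).

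Col2a1, the fibrillar chain of cartilage, had 0 counts in all control oocytes and in all 29 granulosa libraries. It was read in 4 of 16 doxorubicin oocytes, at 29.8 CPM in oocyte 3, 23.5 CPM in oocyte 5, 18.4 CPM in oocyte 4 and 12.015 CPM in oocyte 11. The group level was 5.63 CPM, a log2 ratio of at least 8.52 with the empty group set to 3 counts. Its other 12 doxorubicin oocytes were at 0. Doxorubicin oocytes 3, 4, 5 and 11 held 38.2, 65.7, 54.1 and 40.6 CPM of stroma markers, near their group's median of 59.9 CPM. Their granulosa markers were at 75.9, 116, 43.8 and 2685 CPM, against a median of 99.2 CPM. Their endothelium markers were at 135, 36.6, 36.9 and 24.9 CPM, against a median of 28.0 CPM. Col12a1, which decorates fibrils, had 8.09 against 2.38 CPM, with 79.9% of its counts in doxorubicin oocytes 9 and 10.

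Among the beaded filament chains, Col6a1 and Col6a2 were higher, as the fibrillar chains were. Col6a2 ranged from 0 through 4.06 to 227 CPM in doxorubicin oocytes and from 0 through 0.14 to 53.0 CPM in control oocytes. Its log2 ratio was 1.94 (1.87 to 2.02), and 4 doxorubicin oocytes lay above the highest control. For Col6a1 the log2 ratio of 1.54 was 0.79 without doxorubicin oocyte 9. Among the oocytes with few stroma and granulosa transcripts the Col6a1 ratio was 4.36. There doxorubicin oocyte 7 had 24.7 CPM and the next highest doxorubicin oocyte 1.93 CPM, while the highest control oocyte had 0.77 CPM. Col6a3 stayed near its control level, at 26.03 against 31.9 CPM.

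**Figure D3:**
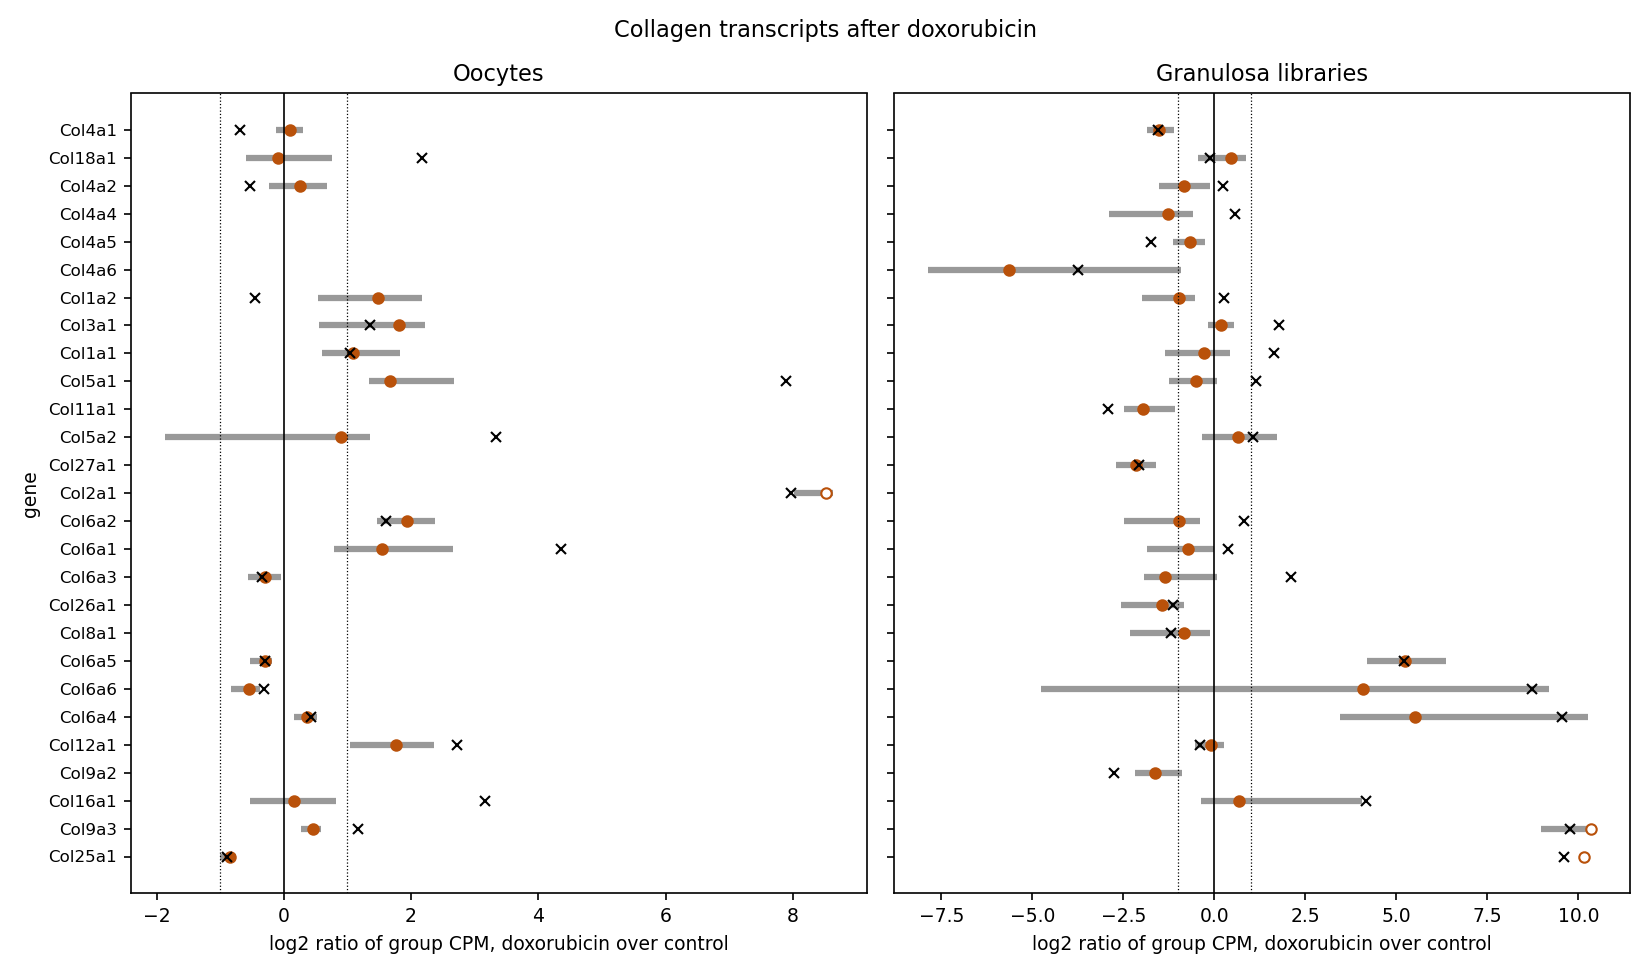
Log2 ratio of group CPM, doxorubicin over control, for each collagen gene with at least 5 CPM in either group, in oocytes (left) and granulosa libraries (right, on a wider axis). Filled circles are group values, and open circles have a group under 3 counts set to 3. Grey bars span the values without any 1 cell, and dotted lines mark 2-fold. Crosses use the oocytes with few stroma and granulosa transcripts and the granulosa libraries with stroma markers below granulosa markers. In oocytes Col4a1 and Col6a3 to Col6a6 stay within 2-fold, while in granulosa libraries Col4a1 stays below -1 under every omission.

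The collagens typical of oocytes, Col6a4 to Col6a6, Col9a3 and Col25a1, were each within 2-fold after doxorubicin over all cells. Col25a1 was lower in doxorubicin oocytes, at 7.94 against 14.3 CPM, with a range of 0 through 8.02 to 20.4 CPM. Of the 16 doxorubicin oocytes, 6 lay below the lowest control oocyte and none above the highest. The log2 ratio was -0.84 (-0.94 to -0.75), between -0.999 and -0.75 without any 1 cell, and -0.89 among oocytes with few stroma and granulosa transcripts. Col6a6 had 22.5 CPM and a log2 ratio of -0.55, and 3 of 16 doxorubicin oocytes lay below the lowest control. Col6a5 ranged from 1.24 through 61.3 to 212 CPM with a log2 ratio of -0.30. Col6a4 (0.36) and Col9a3 (0.45) were slightly higher, and Col9a3 ranged from 0 through 23.3 to 109 CPM. Among the oocytes with few stroma and granulosa transcripts Col9a3 was past 2-fold, at 1.17. The summed oocyte markers had a log2 ratio of -0.32 over the same cells.

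Basement membrane chains in doxorubicin oocytes reached 56.4 CPM in total (55.3 to 57.5). The log2 ratio over control was 0.11 (0.07 to 0.15). The range over cells was 11.4 through 36.9 to 208 CPM, against 7.92 through 38.2 to 194 CPM in control oocytes. The medians lie close together and the ranges coincide. Col4a1 ranged from 0.17 through 14.3 to 99.8 CPM with a log2 ratio of 0.10, Col4a2 had 0.26, and Col18a1 had -0.09. None of the 3 was past 2-fold with any 1 cell left out, but the sign of each turned with a single cell. Among the oocytes with few stroma and granulosa transcripts Col18a1 was past 2-fold, at 2.17, while Col4a1 had -0.69 and Col4a2 -0.54. The difference between the class ratios, 1.49 for fibrillar and 0.11 for basement membrane chains, was not tested.

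**Figure D4:**
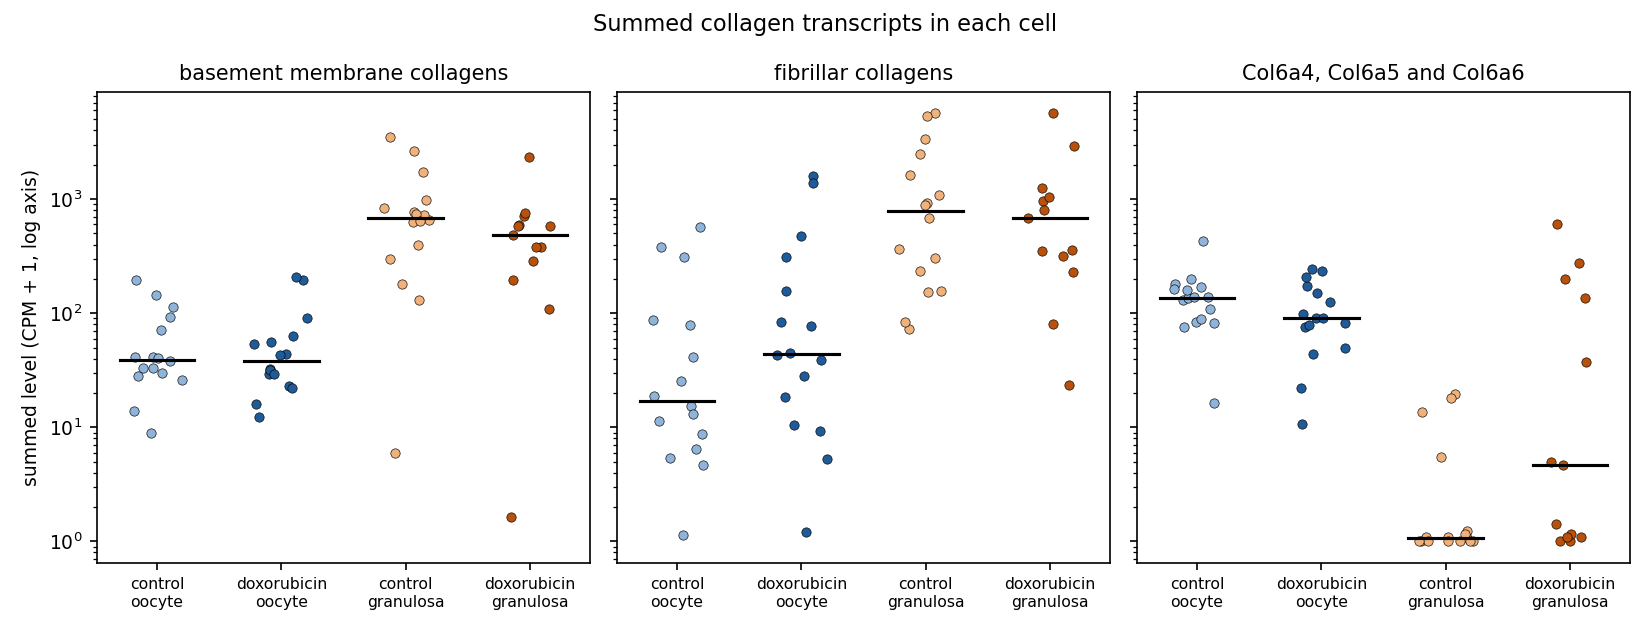
Summed level of the basement membrane collagens, the fibrillar collagens and the trio Col6a4, Col6a5 and Col6a6 in every library, in CPM plus 1 on a log axis, with the median of each group as a bar. Oocytes sit near 38.2 and 36.9 CPM of basement membrane chains in both treatments, and most granulosa libraries lie above them for both classes but spread widely (4.99 to 3509 CPM of basement membrane chains in controls).

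In granulosa libraries doxorubicin went with less of the main type IV chain, while the direction of the fibrillar difference depended on which libraries were counted. Of 26 members that reached 5 CPM, 5 were at least 2-fold higher and 8 at least 2-fold lower. These shares stand beside 20.6% and 20% of all 12194 genes, 40.6% together, so a difference past 2-fold was common in these libraries. All 5 higher members were under 5 CPM in control libraries and passed the filter only through the doxorubicin group. They could thus only come out higher. On the lower side, Col4a6 and Col27a1 passed only through the control group. The members' median log2 ratio was -0.69, against -0.03 for all genes. Without any 1 cell, 6 of the 13 stayed past 2-fold, among them Col4a1, Col11a1 and Col27a1 on the lower side. Marker sums differed between the groups as well: stroma markers were 2863 CPM in control and 1216 CPM in doxorubicin libraries, mural markers 1050 and 243 CPM, endothelium markers 77.7 and 22.5 CPM, and oocyte markers 2629 and 12124 CPM. Granulosa markers were at 6439 and 5804 CPM. Stroma markers per library ran from 32.6 to 14989 CPM in control and from 0.74 to 6951 CPM in doxorubicin libraries, with none of the 12 at 0 in either group. Of the endothelium markers Tie1 was at 0 in both groups, and Pecam1 and Emcn were at 0 in doxorubicin libraries. Among control libraries Pecam1 was read in control granulosa 6 alone, at 30.9 CPM. Blood and immune markers were at 38.2 and 2434 CPM, and surface epithelium markers at 18.2 and 135 CPM. Of the former, Ptprc, Cd52 and Lyz2 were at 0 in both groups, Csf1r in control and C1qa in doxorubicin libraries. Doxorubicin granulosa 15 held 34685 CPM of the blood and immune markers, with the haemoglobin genes Hba-a1 at 20976 and Hbb-bs at 12402 CPM. Doxorubicin granulosa 6 held 1484 CPM and control granulosa 8 held 283 CPM of the markers of surface epithelium. The part of these markers in the differences was not tested.

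The basement membrane sum was 591 CPM (587 to 595) in doxorubicin granulosa libraries, a log2 ratio of -0.67 over control. Over the 13 libraries it ranged from 0.65 through 485 to 2343 CPM, within the span of the control libraries (4.99 through 688 to 3509 CPM) but for the lowest. The ratio lay between -1.13 without doxorubicin granulosa 4 and -0.34 without control granulosa 3. It was -1.17 in the 12 control and 5 doxorubicin libraries whose granulosa markers exceeded their oocyte markers. In the 10 and 12 libraries where stroma markers were below granulosa markers it was -0.59. The sum was thus lower under each of these selections.

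Col4a1 carried most of the difference. It ranged from 0 through 32.3 to 481 CPM over doxorubicin granulosa libraries, against 1.14 through 226 to 1834 CPM over control ones. Of 13 doxorubicin libraries 3 lay below the lowest control, and the highest of them lay under the 3 highest controls, at 1834, 1280 and 1271 CPM. The group levels were 145 and 417 CPM, a log2 ratio of -1.52 (-1.55 to -1.50), with values from -1.86 to -1.10 without any 1 cell. It was -1.54 where stroma markers were below granulosa markers and -1.50 where granulosa markers exceeded oocyte markers.

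Its partner Col4a2, read from the same start, had 106 against 188 CPM and a log2 ratio of -0.83. That ratio was -0.11 without control granulosa 3 and 0.24 where stroma markers were below granulosa markers. Col4a2 ranged from 0.09 through 68.2 to 536 CPM in doxorubicin libraries, and its median was above the control median of 44.7 CPM. The chains could part company within a library: doxorubicin granulosa 4 had 536 CPM of Col4a2 and 3.79 CPM of Col4a1. Over libraries the rank correlation of Col4a1 with Col4a2 was 0.65 in 16 control and 0.49 in 13 doxorubicin granulosa libraries, where both values share the library and its depth.

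Col18a1 went the other way, at 300 against 218 CPM, a log2 ratio of 0.46. Doxorubicin granulosa 4 alone had 1803 CPM and gave 51.0% of the group's counts. Without it the log2 ratio was -0.44, and the doxorubicin median of 150 CPM was just under the control median of 174 CPM. The ratio was also negative, at -0.91, where granulosa markers exceeded oocyte markers, and -0.12 where stroma markers were below granulosa markers. Col4a4 (18.0 against 43.4 CPM) had -1.27 on the log2 scale, and leaving out doxorubicin granulosa 15 or control granulosa 16 gave -2.90 or -0.59. Under the same selections of libraries Col4a4 had 0.27 and 0.56. Col4a5 (21.6 against 34.2 CPM) had -0.66. Col4a6 (0.69 against 33.9 CPM) had -5.63, and -0.91 without control granulosa 3.

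Fibrillar chains summed to 1151 CPM (1145 to 1156) in doxorubicin granulosa libraries, a log2 ratio of -0.41. Their range was 22.6 through 686 to 5634 CPM, against 71.4 through 781 to 5643 CPM in control libraries, so the groups overlapped almost completely. The ratio was -1.04 without doxorubicin granulosa 13 and -0.06 without control granulosa 2. Where stroma markers were below granulosa markers it was 0.95, with 10 control libraries at 384 CPM and 12 doxorubicin libraries at 744 CPM. Stroma markers still reached 2340 CPM in control and 2474 CPM in doxorubicin granulosa 15 there. Where granulosa markers exceeded oocyte markers the ratio was 1.63. That selection left out control granulosa 2, 8, 13 and 14, with 5745, 8443, 14989 and 4109 CPM of stroma markers. It kept control granulosa 16, with 3718 CPM, and doxorubicin granulosa 13 and 15, with 6951 and 2474 CPM. The direction of the fibrillar difference thus turned with the libraries counted, which that of the basement membrane sum did not.

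The fibrillar chains had unlike ratios. Col1a2 ranged from 0 through 0.73 to 2490 CPM in doxorubicin granulosa libraries, with a group level of 379 against 750 CPM. Only 7 of 13 doxorubicin libraries had at least 5 reads of Col1a2, against 13 of 16 control ones, and the log2 ratio was -0.98. It was 1.54 where granulosa markers exceeded oocyte markers and 0.28 where stroma markers were below granulosa markers. Col3a1 ranged from 0 through 262 to 1965 CPM, with 558 against 487 CPM and a log2 ratio of 0.19, and 1.95 and 1.77 under those selections of libraries. Col1a1 ranged from 0 through 0.41 to 635 CPM with a log2 ratio of -0.29, and Col5a1 from 0 through 2.39 to 438 CPM with -0.50. In the same order the selections gave 2.31 and 1.63 for Col1a1, and 1.74 and 1.16 for Col5a1. Each of these 4 chains was thus higher in the doxorubicin libraries so selected. Doxorubicin granulosa 15, with 2474 CPM of stroma markers, was kept in both selections, and doxorubicin granulosa 13, with 6951 CPM, in the first. Col5a2 was at 29.6 against 19.0 CPM, a log2 ratio of 0.64, with 52.8% of its counts in doxorubicin granulosa 15.

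Past 2-fold were the minor fibrillar chains Col11a1, at 5.90 against 22.8 CPM, and Col27a1, at 3.39 against 15.02 CPM. Col11a1 ranged from 0 through 0.09 to 32.3 CPM, and its log2 ratio of -1.95 was -1.08 without control granulosa 6. Col27a1 had a log2 ratio of -2.15, between -2.70 and -1.61 without any 1 cell. Of the beaded filament chains, Col6a1 (120 against 198 CPM) had -0.72 and Col6a2 (107 against 209 CPM) had -0.97. Doxorubicin granulosa 13 gave 58.1% and 68.0% of their counts. Col6a3 had -1.36, but 0.07 without control granulosa 13. The signs turned for all 3 chains where granulosa markers exceeded oocyte markers, at 1.70, 2.14 and 3.13. They also turned where stroma markers were below granulosa markers, at 0.37, 0.82 and 2.10. Doxorubicin granulosa 13 was kept in the first of these selections only.

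Of the remaining members, Col26a1 was at 9.22 against 25.2 CPM, a log2 ratio of -1.45 that was -0.83 without control granulosa 2 and 0.18 where granulosa markers exceeded oocyte markers. Col9a2 was at 5.95 against 18.4 CPM (-1.63), and -0.90 without control granulosa 4. The short-chain network collagen Col8a1 was at 6.89 against 12.2 CPM (-0.82). Col12a1 (41.4 against 43.9 CPM, -0.08) and Col16a1 (16.4 against 10.3 CPM, 0.67), both fibril-associated, were within 2-fold. Col16a1 had -0.38 without doxorubicin granulosa 13 and 4.06 without control granulosa 3.

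All 5 members at least 2-fold higher in doxorubicin granulosa libraries were the collagens typical of oocytes. Col6a5 was at 63.4 against 1.67 CPM, with a range of 0 through 0.16 to 466 CPM. The high values were doxorubicin granulosa 6 (466 CPM), 2 (273 CPM) and 10 (108 CPM), and the log2 ratio of 5.24 was 4.18 or more without any 1 cell. It was -1.18, on the other side of 0, in the 12 control and 5 doxorubicin libraries whose granulosa markers exceeded their oocyte markers. Col25a1 was read in doxorubicin granulosa 1 alone, at 284 CPM, above any oocyte, and without that library both groups were at 0. Col9a3 had 21.8 CPM, with 186 CPM in doxorubicin granulosa 6, and a log2 ratio of 10.94 (9.08 to 13.98) over the 2 control counts. Col6a4 had 21.5 CPM, with 198 CPM in doxorubicin granulosa 4. Col6a6 had 10.4 CPM, with 138 CPM in doxorubicin granulosa 6, and its log2 ratio of 4.09 became -4.75 without that library. Libraries 1, 6 and 4 held the highest oocyte markers of the group, at 42173, 30019 and 23124 CPM, while library 2 held 5048 CPM. However, library 1 held only 0.42 CPM of Col6a4, Col6a5 and Col6a6 together. Library 12, with 15896 CPM of oocyte markers, held 0 of them. Over the 13 libraries the rank correlation of that sum with the oocyte markers was 0.20. At least 5 reads of Col6a5 were found in 5 of 13 doxorubicin granulosa libraries. Oocyte markers were at 340 CPM or more in all 13, with the lowest value in doxorubicin granulosa 13. What part oocyte transcripts had in these values was not tested.

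The class sums were set beside the marker sums of each library. Fibrillar sums had a rank correlation with the stroma markers of 0.67 among control and 0.81 among doxorubicin oocytes. Among granulosa libraries it was 0.93 for controls and 0.76 after doxorubicin. With granulosa markers the value was -0.75 in control granulosa libraries and -0.31 in doxorubicin ones. Basement membrane sums showed almost none in granulosa libraries, with -0.04 and 0.02 for stroma markers and -0.11 and 0.07 for granulosa markers. In doxorubicin oocytes, however, they had 0.78 with stroma and 0.60 with granulosa markers. Each value is over 16 libraries, or 13 for doxorubicin granulosa, whose sums share a library and its depth.

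**Figure D5:**
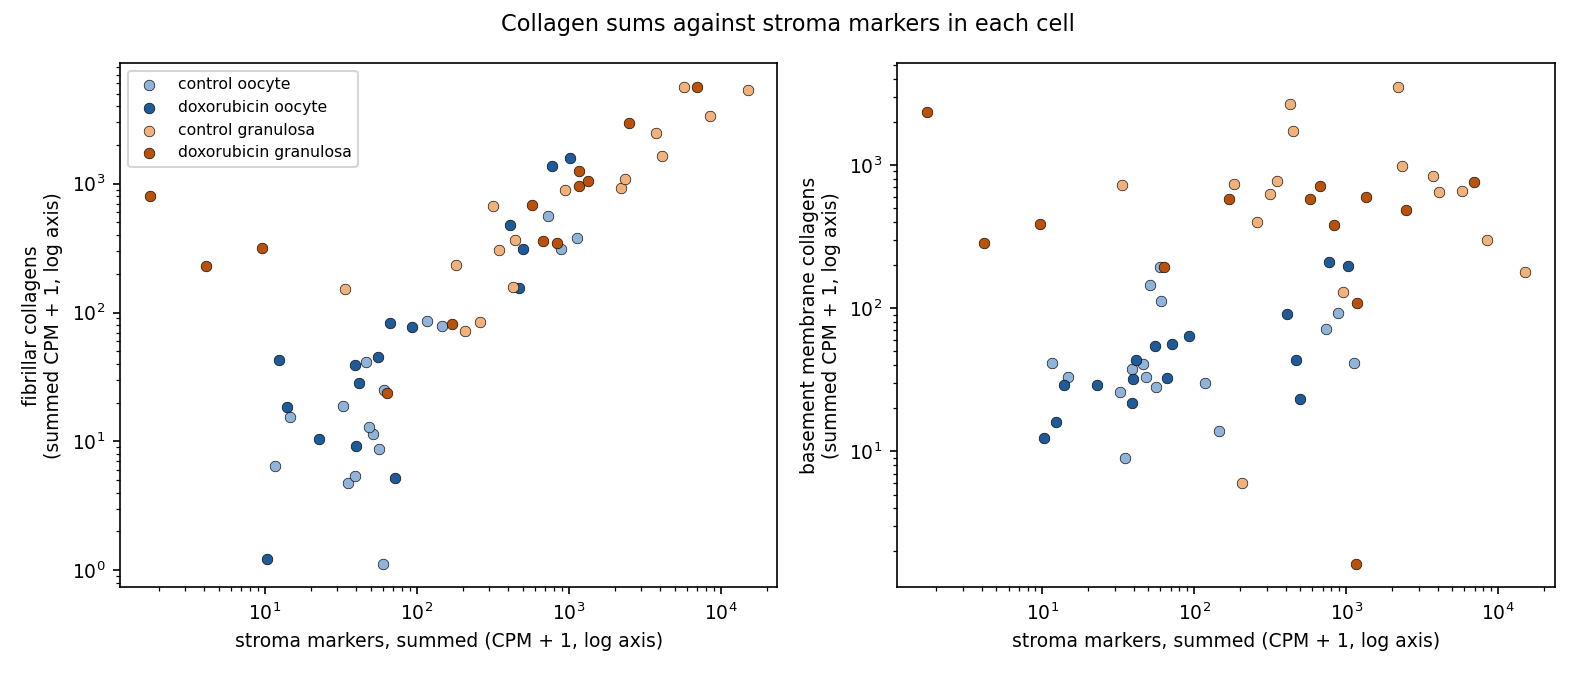
Summed fibrillar collagens (left) and basement membrane collagens (right) against the sum of 12 stroma markers that include no collagen, in CPM plus 1 on log axes, for each of the 61 libraries by group. The fibrillar sum climbs with the stroma markers in each group (rank correlation 0.67 to 0.93), whereas the basement membrane sum in granulosa libraries does not (-0.04 and 0.02).

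The chains were also compared in pairs from library to library. Col1a1 and Col1a2, which share the type I trimer, had rank correlations of 0.82 and 0.83 in oocytes (control, then doxorubicin) and 0.71 and 0.86 in granulosa libraries. In the same order Col6a1 and Col6a2 had 0.64, 0.78, 0.63 and 0.90, whereas Col6a1 and Col6a5 had 0.22, -0.0061, 0.19 and -0.35. Col4a1 and Col4a2 had -0.31 in control and 0.50 in doxorubicin oocytes. The fibrillar and basement membrane sums had 0.08, 0.57, -0.02 and 0.22 with each other.

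The genes that build, bind and break down collagen were read beside the chains. Their counts stand beside the shares of all genes that were at least 2-fold higher and lower, 6.3% and 2.45% in oocytes and 20.6% and 20% in granulosa libraries. Of the 16 genes for chain modification and folding, 11 were measured at 5 CPM in oocytes, of which 1 was at least 2-fold higher and 1 lower after doxorubicin. In granulosa libraries 16 were measured, with 0 higher and 6 lower. The disulfide isomerase P4hb, a subunit of prolyl hydroxylase, had log2 ratios of -0.13 in oocytes and 0.04 in granulosa libraries. Ppib had 0.03 and -0.27, and Crtap, part of a different prolyl hydroxylase complex with Ppib, had 0.11 and -0.79. Control oocytes held 1216 CPM of P4hb against 945 CPM in control granulosa libraries, although their collagen level was far lower.

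For export, propeptide cleavage and crosslinking, 1 of 7 measured genes was at least 2-fold higher and 0 lower in oocytes, and 2 of 10 were higher and 3 lower in granulosa libraries. Over all genes, 6.3% were higher and 2.45% lower in oocytes, against 20.6% and 20% in granulosa libraries. Sparc, a collagen-binding protein of basement membranes, was at 3416 CPM in control and 2638 CPM in doxorubicin granulosa libraries (-0.37). Pcolce, which enhances the cleavage of fibrillar propeptides, was at 449 and 207 CPM (-1.12). Mia3, needed to load collagen into transport vesicles, was higher in control oocytes (132 CPM) than in control granulosa libraries (50.6 CPM).

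Of the basement membrane partners, 2 of 12 measured were at least 2-fold higher and 0 lower in oocytes, and 1 of 12 was higher and 5 lower in granulosa libraries, next to 6.3%, 2.45%, 20.6% and 20% of all genes. Nid1, which links laminin to type IV collagen, was at 464 CPM in control and 268 CPM in doxorubicin granulosa libraries (-0.80). The laminin chains Lamb1 and Lama1 had log2 ratios of -0.13 and -0.52 there. The partners' sum had a log2 ratio of -0.74, next to -0.67 for the basement membrane collagens themselves. The laminin chain Lamb1 took a similar share of counts in control oocytes (252 CPM) and in control granulosa libraries (274 CPM), in contrast to type IV collagen.

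Fibril partners had 2 of 8 higher and 0 lower in oocytes (all genes 6.3% and 2.45%), and 3 of 10 higher and 3 lower in granulosa libraries (all genes 20.6% and 20%). The counts of receptors and of breakdown genes that follow are read beside the same shares. Thbs1 was at 443 against 233 CPM (0.93) in granulosa libraries, and the small proteoglycan Bgn at 61.6 against 317 CPM (-2.36). Fbn2, a microfibril component, had -0.60. Collagen receptors had 1 of 4 measured higher and 1 lower in oocytes, and 1 of 5 higher and 1 lower in granulosa libraries. The collagen receptor kinase Ddr1 was at 38.3 against 9.70 CPM in oocytes (1.98) and at 61.1 against 50.5 CPM in granulosa libraries (0.27). Integrin Itga1, which binds type IV collagen, was at 5.22 against 49.5 CPM in granulosa libraries (-3.24), and its partner Itgb1 at 244 against 434 CPM (-0.83). Among 8 measured genes of collagen breakdown in granulosa libraries, 0 were higher and 2 lower, and in oocytes 1 of 5 was higher and 0 lower. The protease Mmp2 was at 284 against 511 CPM (-0.85), Mmp14 at 202 against 196 CPM (0.05), and the inhibitor Timp2 at 166 against 127 CPM (0.39).

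The other 15 collagen genes stayed under 5 CPM in all 4 groups. They were Col4a3, Col5a3, Col7a1, Col8a2, Col9a1, Col11a2, Col13a1, Col14a1, Col15a1, Col17a1, Col19a1, Col20a1, Col22a1, Col23a1 and Col24a1. Col15a1, the remaining basement membrane type, was at most 0.046 CPM in any group. Col4a3, the head-to-head neighbour of Col4a4, had 4.07 CPM in control granulosa libraries and 0 counts in doxorubicin ones, and 99.6% of it lay in control granulosa 15 and 4.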

How the data were processed

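Single-cell cDNA was made with the SMART-seq v4 kit and libraries with Nextera XT, per the labels' protocols. The authors deposited 1 table of estimated counts for each gene in each cell, not normalized (34.0% of values above 0 are not whole). The submitters' processing notes name Partek, Bowtie2, HISAT2, DESeq2 and build mm10. Which tool aligned or counted, and the annotation, are not given in the sources used here. Raw reads of doxorubicin oocyte 4 were lost, per the series text, and its deposited column was used. All libraries carry the same batch label.

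Estimated counts were rounded, and 22 rows with date names (0.144% of counts) were kept in the totals. Counts were summed over the cells of a group and divided by the group's total to give CPM. With 1 sample a group no test was made: a log2 ratio has an exact 95% conditional binomial interval for counting error only, a group under 3 counts was set to 3 in medians and counts of members, ratios over 1 or 2 counts are printed as counted with their interval, and members reaching 5 CPM in 1 or both groups and at least 2-fold apart were counted beside all genes. Exon lengths are from GENCODE M21 on GRCm38. No 2 cells looked like the same library (smallest chi-square 56.7 per gene, control oocytes 2 and 6).

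Members at 5 CPM or more in any group are named, and those at 20 CPM or more have cell ranges. Of each partner list the 3 genes with the highest summed CPM are named. Members and lists were chosen with earlier results of these data known. Alternatives were equal weight for cells, medians of cells, edgeR 4.0.16 TMM and DESeq2 1.42.0 scaling, filters of 1 and 20 CPM, marker-based selections of cells, and leaving out each cell. Scripts used Python 3.11.15 with numpy 2.4.6, pandas 2.3.3 and scipy 1.17.1. Ratios and their intervals were tested on simulated counts with counting error only. That simulation lacked the spread between cells seen here, so it checks the calculation and not its fit to these data.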

Additional observations from a re-analysis of the deposited data

Results flagged for a closer look

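Log2 ratios of doxorubicin over control that pointed in opposite directions in oocytes and in granulosa libraries drew attention to the results here, and none of these differences was tested. The summed fibrillar collagens had 1.49 in oocytes and -0.41 in granulosa libraries, 1.90 apart. Col1a2 had 1.47 and -0.98, a difference of 2.46. Col6a1 had 1.54 and -0.72, a difference of 2.26, and Col6a2 had 1.94 and -0.97, a difference of 2.91. Col6a5 had -0.30 and 5.24, a difference of -5.54. Col25a1 had -0.84 and at least 10.16, a difference of -11.01 with the empty control group set to 3 counts. Several of the granulosa values changed sign with the libraries counted. Where granulosa markers exceeded oocyte markers they were 1.63 for the fibrillar sum, 1.54 for Col1a2, 1.70 for Col6a1, 2.14 for Col6a2 and -1.18 for Col6a5. Where stroma markers were below granulosa markers they were 0.95, 0.28, 0.37, 0.82 and 5.20 in the same order. The first of these selections left out control granulosa 13 (14989 CPM of stroma markers) and kept doxorubicin granulosa 13 (6951 CPM). In oocytes with few stroma and granulosa transcripts Col1a2 had -0.45. Col25a1 had 0 counts in both granulosa groups without doxorubicin granulosa 1.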

How the results depend on the processing

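No paired analysis was possible because no result comes from a test and the replicate numbers only name cells. Depth limits little, since 3 counts are at most 0.021 CPM in a group. The number of cells and the unnamed animals limit more.

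In doxorubicin over control oocytes, the log2 ratio of the basement membrane sum was 0.0021 with equal weight for cells, -0.059 as a difference of the cells' medians and -0.13 with few stroma transcripts. The fibrillar sum had 1.45, 1.37 and 1.31. The members' median was 0.084 from medians of cells, 0.065 with few stroma transcripts and 0.77 with a filter of 20 CPM. Members past 2-fold were 4 from medians of cells, 18 with a filter of 1 CPM and 5 with a filter of 20 CPM.

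In doxorubicin over control granulosa libraries, the basement membrane sum had -0.71 with equal weight and -0.50 from medians. It had -1.17 where granulosa markers exceeded oocyte markers and -0.59 where stroma markers were below granulosa markers. The fibrillar sum had -0.37, -0.17, 1.63 and 0.95. The members' median was -0.042 from medians of cells, 0.85 and 0.37 under those selections of cells, and -0.58 with a filter of 1 CPM. Members past 2-fold were 20 where stroma markers were below granulosa markers and 20 with a filter of 1 CPM.

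In control granulosa over control oocytes, the basement membrane sum had 3.99, 4.14, 4.40 and 4.80 in the same order, and 4.11 with DESeq2 size factors. The last setting in that order took, for oocytes, those with few stroma and granulosa transcripts. The fibrillar sum had 3.91, 5.51, 2.82 and 4.91, with 4.07 under TMM and 4.04 under DESeq2 factors. The members' median was 3.73, 0.42, 3.04 and 5.22, with 3.91 under DESeq2 factors, 3.63 with a filter of 1 CPM and 4.21 with 20 CPM. Members past 2-fold were 16 from medians of cells.

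Leaving out 1 cell at a time, the basement membrane sums ran from -0.17 to 0.29, -1.13 to -0.34 and 3.84 to 4.34, and the fibrillar sums from 0.98 to 2.04, -1.04 to -0.062 and 3.75 to 4.65. The members' medians ran from 0.26 to 0.76, -1.15 to -0.28 and 3.61 to 4.06. Members past 2-fold numbered 5 to 9, 12 to 19 and 24 to 26. Col6a3 ran from -1.93 to 0.066 in granulosa libraries and from -0.083 to 1.59 between controls, turning without control granulosa 13. Col6a6 ran from -4.75 to 9.20 in granulosa libraries, turning without doxorubicin granulosa 6. Col25a1 has no value in granulosa libraries without doxorubicin granulosa 1, since both groups are then at 0 counts, and neither it nor Col6a6 has one where granulosa markers exceeded oocyte markers. The cause was not tested.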

Other observations

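Libraries with much Col3a1 but almost no Col1a2 were found in the doxorubicin granulosa group. Of the 9 doxorubicin granulosa libraries with at least 100 CPM of Col3a1, 6 had under 1 CPM of Col1a2, against 0 of 11 control granulosa libraries, 0 of 3 control oocytes and 0 of 3 doxorubicin oocytes. In those 6 libraries Col3a1 was between 199.8 and 1210 CPM and Col1a2 between 0 and 0.83 CPM. They held between 5048 and 42173 CPM of oocyte markers and between 0.74 and 1171 CPM of stroma markers. The nearest control granulosa libraries were control granulosa 10, with 95.05 CPM of Col3a1 and 0.226 CPM of Col1a2, and control granulosa 12, with 341.2 and 2.14 CPM. Both thresholds were chosen after the values were seen, and the difference was not tested.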
